A study of Mus musculus with 2 samples.

Results

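The p53 family and its core circuit are taken here as 10 mouse genes, chosen by symbol: Trp53, Trp63, Trp73, Mdm2, Mdm4, Cdkn1a, Gadd45a, Zmat3, Ccng1 and Sesn1. All 10 were among the 23562 genes measured. The study sequenced RNA of AS0574, a mouse breast tumour cell line, in 2 forms. LL3 has the genotype Rnf8-/-;Trp53Δ/Δ, and LL3WT is that genotype complemented with Rnf8. Both forms therefore lack Trp53 by their labels, and neither is set against cells with Trp53 or Rnf8 intact. The labels do not say how Rnf8 was put back, how Trp53 was deleted, or whether either form is 1 clone.

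Each form had 1 library, so replicate spread is unknown and no test between the forms was run. The libraries held 57263401 counted reads (LL3) and 48607808 (LL3WT), and LL3 and LL3WT below stand for these libraries. Levels are in RPKM, reads per kilobase of gene model scaled to the library's total, and brackets after a value give exact 95% limits on its reads, which cover counting error only. A 2-fold rule served in place of a test. It calls a gene higher or lower where log2(RPKM + 1), LL3 minus LL3WT, is at least 1 or at most -1, and it was applied where RPKM averaged 1 or more over both libraries. Of 12609 genes measured by that rule, 14.8% were called higher and 15.9% lower in LL3, and the median difference was -0.17. With TMM scaling, which raised every log2 ratio by 0.23, 58.4% of all calls were higher, beside 48.1% here. Rnf8, a ubiquitin ligase of the DNA break response, stood at 10.5 RPKM in LL3 and 596 RPKM in LL3WT. The 1224 Rnf8 reads of LL3 put the gene near the median of genes with at least 1 RPKM there (10.8 RPKM), in a library labelled Rnf8-/-, and a sum over the gene does not show which exons were read, so it does not check the knockout. The epithelial markers of the labelled tissue summed to 5348 RPKM in LL3 and 0.859 RPKM in LL3WT, so LL3WT held almost none of their reads. The rule called 6 of 6 higher, but all 6 were under 1 RPKM in LL3WT, so the filter fixed their direction. The mesenchymal markers summed to 378 RPKM in LL3 and 940 RPKM in LL3WT (5 of 6 lower), and 7 of 8 proliferation markers were lower. Most of both mesenchymal sums was Vim (376 RPKM in LL3 and 725 RPKM in LL3WT), the marker not called. Of the 6 mesenchymal markers 4 were under 1 RPKM in LL3, so the filter fixed their direction. Col3a1, which differed most, stood at 0.0342 RPKM in LL3 and 140 RPKM in LL3WT, and Col1a1 at 1.17 RPKM in LL3 and 4.42 RPKM in LL3WT. The summed leukocyte markers were at 0.936 RPKM in LL3 and 1.81 RPKM in LL3WT and the endothelial markers at 0.147 RPKM in LL3 and 0.556 RPKM in LL3WT. The part of these broad differences in any result below was not tested.

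p53, the product of Trp53, is a transcription factor that is stabilised by DNA damage and other stress and then switches on genes of growth arrest, repair and cell death. Mdm2, a ubiquitin ligase, and its partner Mdm4 hold p53 in check, and since Mdm2 is itself switched on by p53 the pair forms a feedback loop. Cdkn1a (the cell cycle inhibitor p21), Gadd45a, Zmat3, Ccng1 and Sesn1 are widely used readouts of p53 activity, though each also answers to other factors. The relatives p63 and p73, from Trp63 and Trp73, bind similar DNA sites. p63 maintains the basal layer of the skin and of the breast, and p73 is needed for multiciliated cells and parts of the nervous system.

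The DNA that p53 binds is a pair of decamer half-sites, each made of 3 purines, a C, 2 bases that are A or T, a G and 3 pyrimidines, a motif that reads the same on both strands. Promoter windows of 300 bases (250 before and 50 after an annotated start, from RefSeq on GRCm38.p6) were given for 8 of the 10 genes, in 12 windows. An exact half-site lay in 6 of these windows, against 8.36% of all 32851 windows. Adjacent half-sites with at most 1 mismatch over both lay in 2 member windows, those of Cdkn1a and Ccng1, and in 29 windows (0.0883%) of all. Windows are shown for Cdkn1a, for which p53 binding upstream is textbook, and for 3 genes past the 2-fold rule. Cdkn1a and Sesn1 each have another window, not shown, with 0 exact half-sites. The closest adjacent pairs there had 5 mismatches (Cdkn1a) and 6 (Sesn1). No window was given for Zmat3 or Trp63. Capitals mark the exact half-sites and, for Cdkn1a and Ccng1, also the adjacent pair with 1 mismatch. A match is a description of the letters and not a site of binding. Sequence outside the windows was not searched, so a gene with no close match here may have one elsewhere.
Cdkn1a, plus strand, chr17:29090729-29091028: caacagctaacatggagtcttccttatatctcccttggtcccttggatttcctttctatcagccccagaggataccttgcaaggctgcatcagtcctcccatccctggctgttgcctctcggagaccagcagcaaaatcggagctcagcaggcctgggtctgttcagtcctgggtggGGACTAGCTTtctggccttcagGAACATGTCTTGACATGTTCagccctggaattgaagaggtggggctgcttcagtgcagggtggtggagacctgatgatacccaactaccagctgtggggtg
Ccng1, minus strand, chr11:40755237-40755536: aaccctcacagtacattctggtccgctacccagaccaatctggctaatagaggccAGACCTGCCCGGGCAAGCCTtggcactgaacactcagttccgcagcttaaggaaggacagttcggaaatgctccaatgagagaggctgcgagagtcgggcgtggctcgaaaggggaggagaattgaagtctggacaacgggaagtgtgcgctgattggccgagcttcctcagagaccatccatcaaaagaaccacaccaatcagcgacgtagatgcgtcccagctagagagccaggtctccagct
Gadd45a, minus strand, chr6:67037358-67037657: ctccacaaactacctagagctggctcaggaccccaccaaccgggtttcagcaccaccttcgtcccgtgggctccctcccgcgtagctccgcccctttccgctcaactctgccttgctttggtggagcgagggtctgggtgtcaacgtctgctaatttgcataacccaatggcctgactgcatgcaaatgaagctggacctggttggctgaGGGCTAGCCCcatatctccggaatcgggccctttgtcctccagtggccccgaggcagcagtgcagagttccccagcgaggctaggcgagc
Sesn1, plus strand, chr10:41887189-41887488: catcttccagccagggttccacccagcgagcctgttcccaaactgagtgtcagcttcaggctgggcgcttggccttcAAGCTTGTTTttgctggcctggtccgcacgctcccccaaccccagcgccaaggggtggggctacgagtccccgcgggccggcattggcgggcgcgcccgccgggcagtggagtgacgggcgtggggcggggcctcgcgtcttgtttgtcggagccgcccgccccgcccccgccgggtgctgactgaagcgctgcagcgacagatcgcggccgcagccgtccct
The Cdkn1a pair, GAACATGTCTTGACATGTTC, began 51 bases before the annotated start of that transcript (chr17:29090928-29090947), with a further exact half-site 12 bases before the pair. The Ccng1 pair, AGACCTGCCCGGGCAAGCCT, began 195 bases before the start (chr11:40755462-40755481). Cdkn1a, within the 2-fold rule, was 1.83 times as high in LL3 as in LL3WT, and Ccng1 was 2.48-fold lower. Gadd45a and Sesn1, each with an exact half-site in the window shown and 3 mismatches in the closest adjacent pair, also differed in opposite directions.

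Across the 10 genes, 1 was called higher in LL3 (Gadd45a), 3 were called lower (Zmat3, Sesn1 and Ccng1), and 4 lay within 2-fold (Trp53, Mdm2, Mdm4 and Cdkn1a). Trp63 and Trp73 lay below the filter on low values in both libraries. The median difference of the 8 measured genes was -0.13, beside -0.17 over all genes measured. The shares called, 12.5% higher and 37.5% lower of 8, rest on few genes and are set beside 14.8% and 15.9% of all genes measured.

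**Figure D1:**
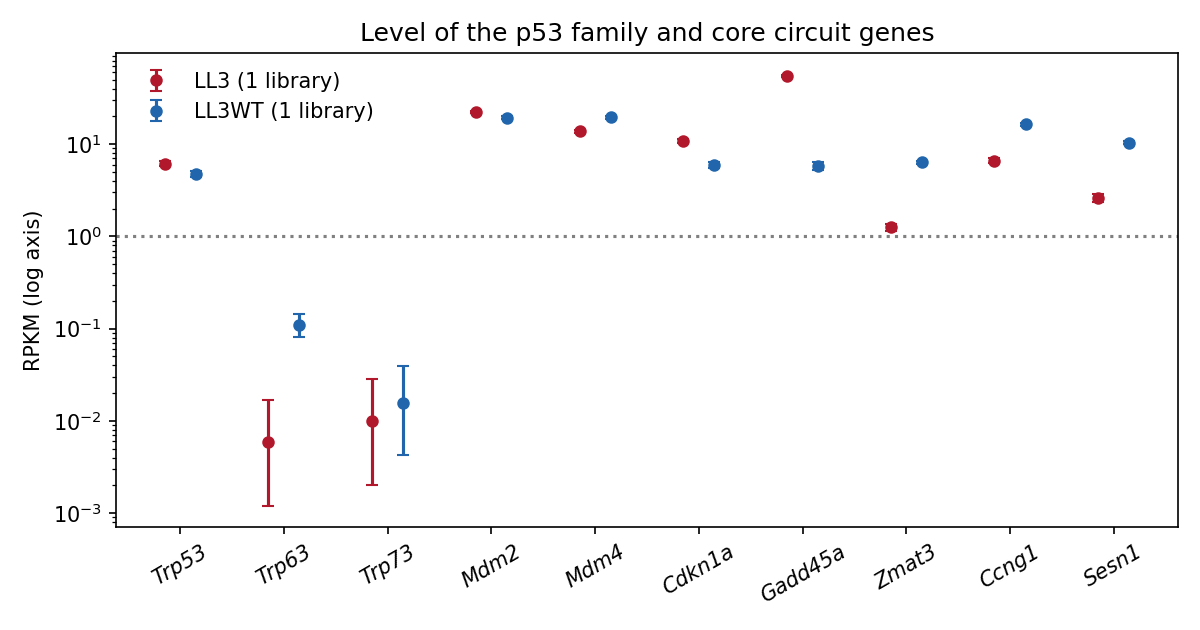
RPKM (log axis) of the 10 genes in LL3 (red, left of each pair) and LL3WT (blue, right), with exact 95% counting limits; the dotted line is at 1 RPKM. Gadd45a is the gene with the red point far above the blue one, Zmat3, Ccng1 and Sesn1 have it below, and Trp63 and Trp73 lie under 0.2 RPKM in both.

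Trp53 (chromosome 11, 69580359 to 69591873) was read 1075 times in LL3 and 696 times in LL3WT. Its levels were 6.15 RPKM (5.79 to 6.53) in LL3 and 4.69 RPKM (4.35 to 5.05) in LL3WT, a ratio of 1.31 (1.19 to 1.44). Both libraries thus held reads of a gene that the labels call deleted, at a level above 34.4% of the genes with at least 1 RPKM in LL3 and 25.5% of those in LL3WT. The values are sums over the gene and do not show which exons were read, so they do not check the deletion. Wrap53, the neighbour that starts beside Trp53 on the other strand, stood at 15.8 RPKM in LL3 and 16.5 RPKM in LL3WT, and its annotated span did not overlap that of Trp53.

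Trp63 (chromosome 16, 25683763 to 25892102) had 3 reads in LL3 and 48 in LL3WT, or 0.00582 RPKM (0.00120 to 0.0170) in LL3 and 0.110 RPKM (0.0809 to 0.146) in LL3WT. That was 18.8-fold fewer in LL3, with counting limits of 6.08 to 94.6. Trp73 (chromosome 4, 154056253 to 154140208) had 3 reads in LL3 and 4 in LL3WT, a ratio of 0.637 with limits of 0.0933 to 3.76, so a difference was not detectable at this depth. At these levels Trp53 made up 99.7% of the family's summed RPKM in LL3 and 97.4% in LL3WT. Annotation places an antisense gene, Trp73os, over 280 exon bases of Trp73, and the sources used here do not say whether counting used strand.

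The inhibitors of p53 differed little, and in opposite directions. Mdm2 (chromosome 10, 117688875 to 117710758), the ubiquitin ligase that marks p53 for breakdown, had 4190 reads in LL3 and 3057 in LL3WT, 22.4 RPKM (21.7 to 23.1) in LL3 and 19.2 RPKM (18.5 to 19.9) in LL3WT. The ratio was 1.16 (1.11 to 1.22). Mdm4 (chromosome 1, 132959484 to 133030561), which binds p53 and blocks its activation domain, had 2883 reads in LL3 and 3464 in LL3WT, 13.8 RPKM (13.3 to 14.3) in LL3 and 19.5 RPKM (18.8 to 20.2) in LL3WT. The ratio was 0.706 (0.672 to 0.742). Mdm2 over Mdm4 in RPKM was therefore 1.62 in LL3 and 0.986 in LL3WT, a 1.65-fold difference (exact conditional 95% limits 1.54 to 1.76) that no scaling of whole libraries can move. The deposited gene model of Mdm4 had 3656 bases, 24.7% of the exon bases that GENCODE vM21 gives the gene, so its level beside Mdm2 depends on that model. Counts over other exons were not analysed here. Mdm2 over Trp53 was 3.64 in LL3 and 4.10 in LL3WT.

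Cdkn1a (chromosome 17, 29090976 to 29100727) encodes p21, which binds cyclin-dependent kinases and PCNA and stops the cell cycle. It had 1650 reads in LL3 and 764 in LL3WT, or 10.8 RPKM (10.3 to 11.4) in LL3 and 5.92 RPKM (5.50 to 6.35) in LL3WT. The level was 1.83 times as high in LL3 (lower limit 1.68, upper limit at the 2-fold mark), within the rule at a log2 difference of 0.78, and 39.8% of all genes measured differed at least as much. With TMM scaling the log2 difference was 0.98, still within the rule. An opposite-strand annotation, AC167363.2, shares 273 exon bases with Cdkn1a.

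Gadd45a (chromosome 6, 67035096 to 67037457) encodes a small stress protein of DNA damage signalling, and it differed most of the 8 genes measured. It had 3849 reads in LL3 and 345 in LL3WT, or 54.9 RPKM (53.2 to 56.7) in LL3 and 5.80 RPKM (5.20 to 6.44) in LL3WT. The level was 9.47-fold higher in LL3 (8.48 to 10.6), a log2 difference of 3.04, and 6.19% of all genes measured differed at least as much. E230016M11Rik, a transcript annotated on the opposite strand and chosen after the overlap was seen, shares 337 exon bases with Gadd45a. It had 1834 reads in LL3 and 264 in LL3WT, a ratio of 5.90 (5.18 to 6.73). Without knowledge of strand the reads of this pair cannot be told apart over the shared bases.

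Zmat3, Sesn1 and Ccng1 went the other way from Gadd45a. Zmat3 (chromosome 3, 32334792 to 32366014), which encodes an RNA-binding zinc finger protein, had 558 reads in LL3 and 2392 in LL3WT, or 1.25 RPKM (1.15 to 1.36) in LL3 and 6.32 RPKM (6.07 to 6.58) in LL3WT. It was 5.05-fold lower in LL3 (4.60 to 5.55), with a log2 difference of -1.70 that left the 2-fold rule with a pseudocount of 5 RPKM, at -0.86. Sesn1 (chromosome 10, 41809935 to 41908424) encodes sestrin 1, which restrains the growth kinase complex mTORC1. It had 498 reads in LL3 and 1685 in LL3WT, or 2.60 RPKM (2.38 to 2.84) in LL3 and 10.4 RPKM (9.89 to 10.9) in LL3WT, and was 3.99-fold lower (3.60 to 4.41).

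Ccng1 (chromosome 11, 40748552 to 40755311) encodes cyclin G1, a partner of protein phosphatase 2A that acts on Mdm2. It had 1324 reads in LL3 and 2782 in LL3WT, or 6.63 RPKM (6.28 to 6.998) in LL3 and 16.4 RPKM (15.8 to 17.0) in LL3WT. That was 2.48-fold lower in LL3 (2.32 to 2.64), with a log2 difference of -1.19. The call of Ccng1 ended with TMM scaling, at -0.99, with median-of-ratios size factors, at -0.98, and with a pseudocount of 5 RPKM, at -0.88. No overlapping gene with shared exon bases was annotated for Zmat3, Sesn1 or Ccng1.

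The order of the levels differed between the libraries. In LL3 it ran Gadd45a, Mdm2, Mdm4, Cdkn1a, Ccng1, Trp53, Sesn1, Zmat3, Trp73 and Trp63 from high to low, and the counting limits of neighbours overlapped for Ccng1 with Trp53 and for Trp73 with Trp63. In LL3WT it ran Mdm4, Mdm2, Ccng1, Sesn1, Zmat3, Cdkn1a, Gadd45a, Trp53, Trp63 and Trp73, and the limits overlapped for Mdm4 with Mdm2, Zmat3 with Cdkn1a, and Cdkn1a with Gadd45a. Gadd45a thus stood first in LL3, above 87.4% of the genes with at least 1 RPKM, and seventh in LL3WT, above 30.7%. Zmat3 stood near the floor of expressed genes in LL3, above 2.90% of them, and above 33.3% in LL3WT. Within LL3 Gadd45a was at 43.9 times the RPKM of Zmat3, and within LL3WT at 0.917 times.

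The genes were next set beside their closest relatives. Of 11 paralogs 9 passed the filter, 0 were called higher and 2 lower (Gadd45b and Zmat1) in LL3 (0% and 22.2%, beside 14.8% and 15.9% of all genes measured). Their median log2 difference was -0.40, beside -0.17 for all genes measured. Zmat1 was under 1 RPKM in LL3, so the filter fixed its direction, and it fell out of the filter on low values with TMM scaling.

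The Gadd45 family had like totals with a different make-up. Gadd45b had 1454 reads in LL3 and 3796 in LL3WT, or 20.1 RPKM in LL3 and 61.7 RPKM in LL3WT, and was 3.08-fold lower in LL3 (2.89 to 3.27). Gadd45g stood at 31.1 RPKM in LL3 and 27.1 RPKM in LL3WT. All these genes encode related stress proteins that bind the kinase MEKK4 (Map3k4). Summed over the family the level was 106 RPKM in LL3 and 94.6 RPKM in LL3WT, a ratio of 1.12. Gadd45a made up 51.8% of that sum in LL3 and 6.13% in LL3WT, and Gadd45b made up 18.9% in LL3 and 65.2% in LL3WT. The ratio of Gadd45a to Gadd45b was 2.74 in LL3 and 0.0940 in LL3WT, a 29.1-fold difference (25.7 to 33.1).

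All 3 sestrins and both G cyclins had lower RPKM in LL3, by unequal amounts, and under each of the 3 other scalings too. Sesn2 stood at 8.93 RPKM in LL3 and 12.1 RPKM in LL3WT, and Sesn3 at 4.90 RPKM in LL3 and 9.37 RPKM in LL3WT, both within the 2-fold rule. The 3 sestrins summed to 16.4 RPKM in LL3 and 31.9 RPKM in LL3WT, and the ratio of Sesn1 to Sesn2 was 2.94-fold lower in LL3 (2.59 to 3.33). Ccng2 stood at 18.4 RPKM in LL3 and 26.3 RPKM in LL3WT, and the ratio of Ccng1 to Ccng2 was 1.73-fold lower in LL3 (1.60 to 1.88).

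The Cip/Kip inhibitors Cdkn1a and Cdkn1b both had more RPKM in LL3. Cdkn1b, which encodes p27, had 3783 reads in LL3 and 1525 in LL3WT, or 14.7 RPKM in LL3 and 6.96 RPKM in LL3WT, a ratio of 2.11 (1.98 to 2.24) and a log2 difference of 0.98 that passed the 2-fold rule with TMM scaling, at 1.18. Cdkn1c had 2 reads in LL3 and 0 in LL3WT. The family's sum was 25.5 RPKM in LL3 and 12.9 RPKM in LL3WT, with Cdkn1a at 42.5% of it in LL3 and 45.9% in LL3WT. Among the Zmat genes, Zmat1 was at 0.316 RPKM in LL3 and 1.76 RPKM in LL3WT, whereas the more abundant Zmat2 (40.7 RPKM in LL3 and 34.5 RPKM in LL3WT) and Zmat5 (15.1 RPKM in LL3 and 19.4 RPKM in LL3WT) lay within 2-fold.

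**Figure D2:**
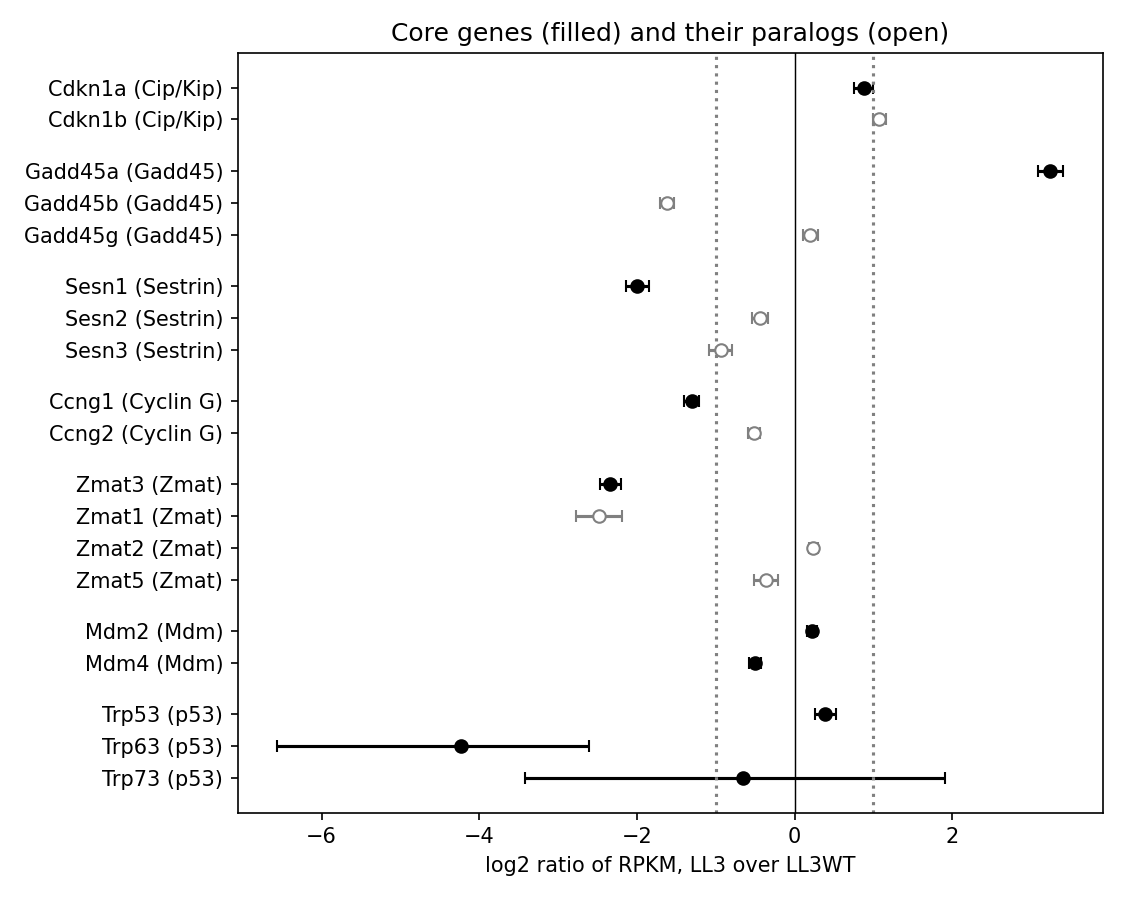
log2 ratio of RPKM, LL3 over LL3WT, for the 10 genes (filled) and the 9 paralogs that passed the filter (open), with exact 95% counting limits. Dotted lines mark 2-fold, and Cdkn1c and Zmat4 are not drawn. Gadd45a and Gadd45b lie on opposite sides of 0, the sestrins and G cyclins all lie left of it, and the limits of Trp73 span it.

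**Figure D3:**
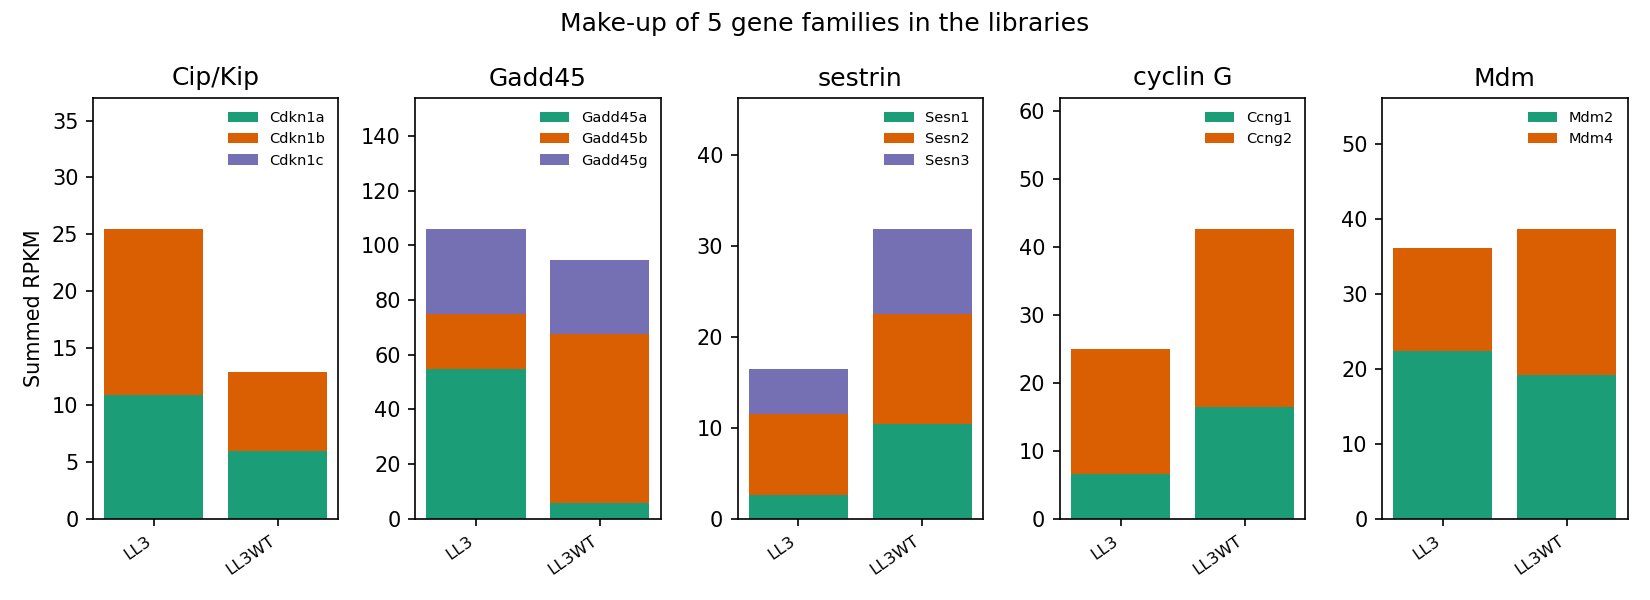
Summed RPKM of 5 families in LL3 (left bar) and LL3WT (right bar), split by gene; each bar is 1 library. The Gadd45 bars are of like height, 106 RPKM in LL3 and 94.6 RPKM in LL3WT, with Gadd45a and Gadd45b in exchanged shares.

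The regulators upstream of p53 were described from 30 listed genes, of which 28 passed the filter. In LL3 3 were called higher and 5 lower (10.7% and 17.9%, beside 14.8% and 15.9% of all genes measured), with a median of -0.41. Of the kinases and the phosphatase that act on p53, 8 were listed and 6 measured, with 0 higher and 2 lower (0% and 33.3%). The checkpoint kinase gene Chek1 stood at 1.56 RPKM in LL3 and 4.80 RPKM in LL3WT. Ppm1d, which encodes the phosphatase that switches off p53 signalling and is itself a p53 target, stood at 2.58 RPKM in LL3 and 6.89 RPKM in LL3WT. Chek2 (8.25 RPKM in LL3, 14.98 RPKM in LL3WT), Mapk14 (17.4 RPKM in LL3 and 30.2 RPKM in LL3WT) and Atm (1.41 RPKM in LL3 and 2.61 RPKM in LL3WT) lay within 2-fold.

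Of 12 ubiquitin and acetylation enzymes that act on p53, 1 was higher and 2 lower (8.33% and 16.7%, beside 14.8% and 15.9% of all genes measured). The acetyltransferase genes Crebbp and Ep300 stood at 2.83 and 3.42 RPKM in LL3 and at 10.2 and 7.89 RPKM in LL3WT. Trim24, a ubiquitin ligase of p53, stood at 6.57 RPKM in LL3 and 2.15 RPKM in LL3WT. The deacetylase gene Sirt1 was within the rule at 2.72 RPKM in LL3 and 6.20 RPKM in LL3WT, and Kat8 differed least at 8.12 RPKM in LL3 and 7.76 RPKM in LL3WT. Of 10 binding proteins 2 were higher and 1 lower (20% and 10%). The higher ones were Trp53bp2 (12.6 RPKM in LL3, 5.02 RPKM in LL3WT) and Ppp1r13l (24.7 RPKM in LL3 and 11.7 RPKM in LL3WT). Both belong to the ASPP family that steers p53 toward or away from cell death genes. The 1 lower gene was Cdkn2a, whose locus gives both the Mdm2 inhibitor Arf and the kinase inhibitor p16, at 95.002 RPKM in LL3 and 202 RPKM in LL3WT. The calls of Ppm1d, Ep300 and Cdkn2a ended with TMM scaling, and lower calls among regulators then numbered 2 beside 3 higher. With a pseudocount of 5 RPKM 0 regulators were higher and 1 was lower.

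The other p53 targets were described from 55 listed genes outside the core circuit, of which 48 passed the filter. In LL3 14 were called higher (29.2%, beside 14.8% of all genes measured) and 6 lower (12.5%, beside 15.9%), and the median log2 difference was 0.28. Among the called genes, Sfn and Igfbp3 were under 1 RPKM in LL3WT, and Fas and Zfp365 were under 1 RPKM in LL3. Each of these passed the filter through 1 library only, so the filter fixed its direction. With a filter at a mean RPKM of 5 the lower calls numbered 3. Growth arrest genes showed the widest spread. Of 7 measured, 4 were higher and 2 lower (57.1% and 28.6%). Sfn, the epithelial cell cycle inhibitor 14-3-3 sigma, stood at 55.4 RPKM in LL3 and 0.765 RPKM in LL3WT, a 72.4-fold difference. Plk2, a stress-induced kinase gene, stood at 66.9 RPKM in LL3 and 6.77 RPKM in LL3WT, and the antiproliferative gene Btg2 at 13.3 RPKM in LL3 and 1.72 RPKM in LL3WT. Gtse1, a gene of dividing cells that restrains p53, was lower at 3.77 RPKM in LL3 and 13.5 RPKM in LL3WT.

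Of 13 cell death genes measured, 3 were higher, 1 was lower and 9 were not called. The shares called were 23.1% higher and 7.69% lower, beside 14.8% and 15.9% of all genes measured. Among the uncalled genes, Trp53inp1, a regulator of p53 phosphorylation and autophagy, stood at 2.11 RPKM in LL3 and 0.577 RPKM in LL3WT. Its ratio was 3.65 (3.11 to 4.30) and its log2(RPKM + 1) difference 0.98, and it was called higher with TMM scaling, at 1.10. Perp, which encodes a membrane protein of epithelial junctions, stood at 78.4 RPKM in LL3 and 12.0 RPKM in LL3WT, the death receptor gene Tnfrsf10b at 15.7 RPKM in LL3 and 3.91 RPKM in LL3WT, and Shisa5 at 87.5 RPKM in LL3 and 36.0 RPKM in LL3WT. Fas, another death receptor gene, was 30.04-fold lower in LL3. Of 9 DNA repair genes measured 0 passed the rule in either direction, beside 30.7% of all genes measured. Mgmt, also listed, fell below the filter, with 62 reads (1.32 RPKM) in LL3 and 0 in LL3WT. Without that filter Mgmt was called higher, at a log2 difference of 1.22. Among the 9 measured, the largest differences were those of Fancc (0.898 RPKM in LL3, 2.68 RPKM in LL3WT), Polh (4.34 RPKM in LL3 and 9.18 RPKM in LL3WT) and Polk (5.09 RPKM in LL3 and 2.45 RPKM in LL3WT). With a pseudocount of 0.1 RPKM Polk was called higher and Polh and Fancc lower, and with median-of-ratios size factors Polk was called higher. Xpc, a damage sensor of nucleotide excision repair, was at 14.2 RPKM in LL3 and 13.04 RPKM in LL3WT.

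Of 14 metabolism and autophagy genes 5 were higher and 0 lower (35.7% and 0%, beside 14.8% and 15.9% of all genes measured), and with a pseudocount of 5 RPKM 3 were higher. Ephx1, an epoxide hydrolase gene, stood at 57.4 RPKM in LL3 and 2.36 RPKM in LL3WT, Pmm1 at 55.2 RPKM in LL3 and 17.1 RPKM in LL3WT, Igfbp3 at 1.99 RPKM in LL3 and 0.0842 RPKM in LL3WT, and Ddit4, another inhibitor of mTORC1, at 151 RPKM in LL3 and 64.2 RPKM in LL3WT. The last group of 5 genes divided into 2 higher, Lif (56.2 RPKM in LL3, 17.8 RPKM in LL3WT) and Tap1 (4.89 RPKM in LL3 and 1.61 RPKM in LL3WT), and 3 lower (40% and 60%). Among the lower ones were Zfp365 with 1 read in LL3 and 1094 in LL3WT and Thbs1 at 279 RPKM in LL3 and 900.4 RPKM in LL3WT. These values stand beside the epithelial and mesenchymal marker sums given above, and the part of cell identity in them was not tested.

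**Figure D4:**
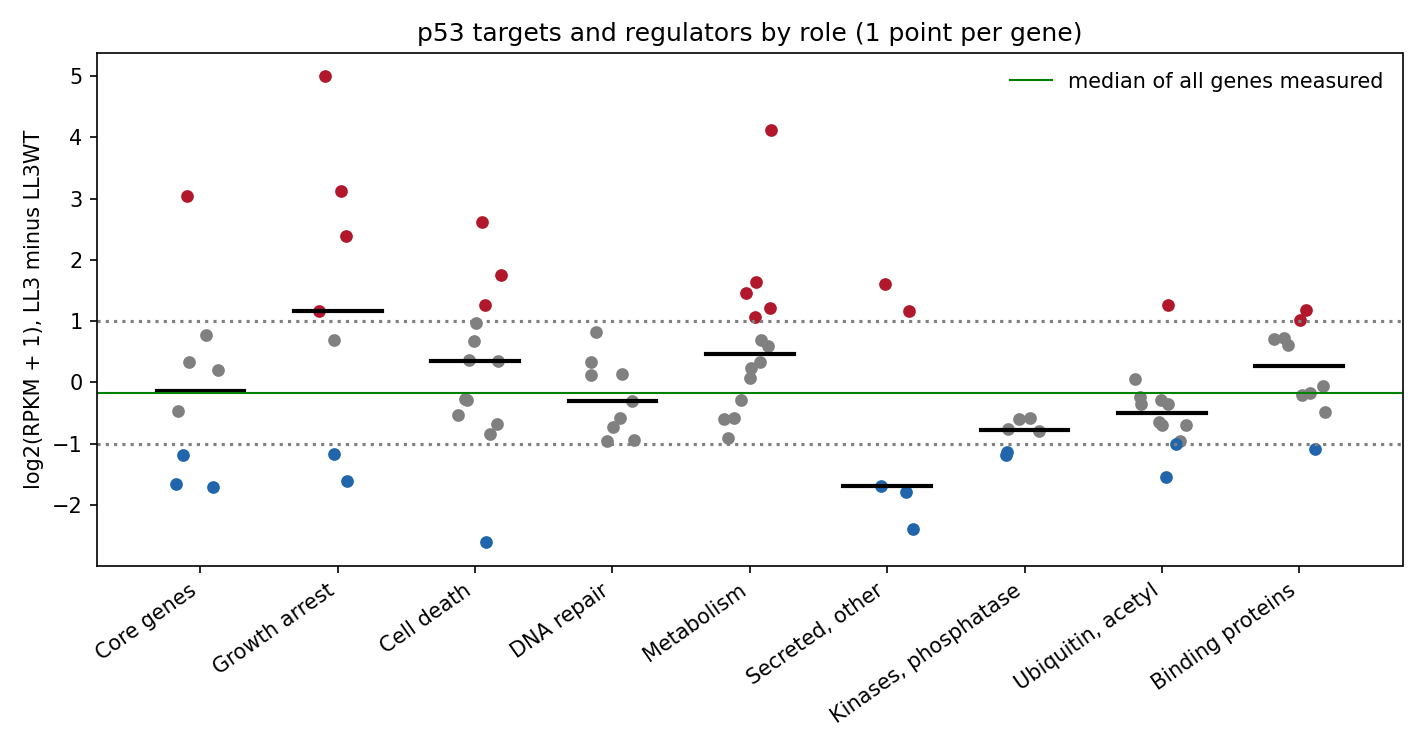
Difference in log2(RPKM + 1), LL3 minus LL3WT, for the core genes, the other p53 targets by role and the p53 regulators by role; each point is 1 measured gene, red called higher, blue lower, grey not called, black bars group medians, and the green line the median of all genes measured (-0.17). Growth arrest targets spread most, with Sfn, which passed the filter only through LL3, at the top. All measured DNA repair targets lie between the dotted 2-fold lines.

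Targets of the family's other members were read against the low Trp63 and Trp73. Of 23 epithelial genes known as p63 targets 16 passed the filter, and 14 were higher and 1 lower in LL3. These shares were 87.5% and 6.25%, beside 14.8% and 15.9% of all genes measured. Of the 16 genes 13 were under 1 RPKM in LL3WT and passed only through LL3, and 1 passed only through LL3WT, so the filter fixed the direction of those genes. LL3 was also the library with 3 reads of Trp63. Krt14, a keratin of basal cells, stood at 229 RPKM in LL3 and 0.335 RPKM in LL3WT, the desmosome gene Pkp1 at 76.5 RPKM in LL3 and 0.2501 RPKM in LL3WT, and the laminin gene Lamb3 at 75.6 RPKM in LL3 and 0.337 RPKM in LL3WT. The 1 lower gene was Fgfr3, with 10 reads in LL3 and 517 in LL3WT, and Dst lay within 2-fold at 1.35 RPKM in LL3 and 2.62 RPKM in LL3WT. These genes are also epithelial genes, and the 6 epithelial markers were higher in the same library. Below the filter lay 7 more listed p63 targets. Jag2 (426 reads in LL3, 22 in LL3WT) and Dlx3 (67 in LL3, 4 in LL3WT) had more RPKM in LL3. Fgfr2 (2 in LL3, 68 in LL3WT), Fras1 (21 in LL3, 87 in LL3WT) and Col17a1 (38 in LL3, 68 in LL3WT) had fewer. Bmp7 and Satb1 had 0 reads in both. Without the filter 15 of 23 p63 targets were called higher and 1 lower. Of 6 genes of the multiciliated cell programme downstream of p73, 2 passed the filter, both only through LL3, so the filter fixed their direction. Rfx2 stood at 2.96 RPKM in LL3 and 0.633 RPKM in LL3WT, and Foxj1 at 2.13 RPKM in LL3 and 0.472 RPKM in LL3WT. The other 4 had fewer RPKM in LL3. Rfx3 stood at 0.376 RPKM in LL3 and 0.495 RPKM in LL3WT, Myb had 9 reads in LL3 and 18 in LL3WT, and Ccno had 0 reads in LL3 and 12 in LL3WT. Mcidas, an early gene of that programme, had 2 reads in LL3 and 18 in LL3WT.

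Last, the partners of p21 and of the sestrins were read. Of 11 cyclins, kinases and PCNA measured as p21 partners, 2 were higher and 6 lower in LL3, with a median of -1.004 (18.2% and 54.5%, beside 14.8% and 15.9% of all genes measured). The lower calls numbered 3 with TMM scaling, with median-of-ratios size factors and with a pseudocount of 5 RPKM. Of those lost under TMM scaling, Cdk1 lay at a log2 difference of -1.004, Cdk2 at -1.12 and Ccne1 at -1.13. Ccnd1 (cyclin D1) stood at 145 RPKM in LL3 and 13.4 RPKM in LL3WT, whereas Ccna2 (cyclin A2) stood at 12.3 RPKM in LL3 and 89.3 RPKM in LL3WT, Ccne2 (cyclin E2) at 2.01 RPKM in LL3 and 10.04 RPKM in LL3WT and Ccnb1 (cyclin B1) at 17.2 RPKM in LL3 and 47.9 RPKM in LL3WT. Cdk4 differed least, at 270.4 RPKM in LL3 and 316 RPKM in LL3WT. The proliferation markers summed to 122 RPKM in LL3 and 386 RPKM in LL3WT, beside a Cdkn1a level of 10.8 RPKM in LL3 and 5.92 RPKM in LL3WT, and a link between them was not tested. Cdk1, Ccna2 and Ccnb1 are both p21 partners and proliferation markers here, so these lists are not separate readings. Sestrins act through the GATOR complexes. Of 8 GATOR genes 0 passed the rule in either direction (median -0.09), beside 30.7% of all genes measured. Seh1l stood at 20.1 RPKM in LL3 and 34.96 RPKM in LL3WT, and Sec13 at 88.5 RPKM in LL3 and 90.8 RPKM in LL3WT.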

How the data were processed

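RNA was measured in 1 library of each of the forms of the cell line. The submitters' processing notes name the build mm10 (GRCm38) and, with no role or order, DESeq2, bedtools, SAMtools 0.1.18 and STAR 2.4.0f1. The sources used here do not name the counting tool, annotation or strand setting. The deposited values are raw counts of reads per gene and RPKM of the same genes and libraries. Each RPKM was the count divided by the column total and 1 gene length, which agreed between libraries to within 1.38e-08 bases. Columns were matched by sample title, with 0 columns left over.

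The design named RPKM with a 2-fold rule, and counts served for limits and scaling. Limits on levels are exact Poisson, those on ratios exact conditional (Clopper-Pearson), and those on ratios of 2 genes exact conditional odds ratios (scipy 1.17.1). They cover counting error only, and PCR copies can make them too narrow. A gene of 2000 bases with 3 reads stands at 0.0262 RPKM in LL3 and at 0.0309 RPKM in LL3WT. Alternatives were other pseudocounts and filters, TMM (edgeR 4.0.16), median-of-ratios size factors (DESeq2 1.42.0) and a total without the 50 genes with most reads. The rule and limits were run on simulated Poisson counts with no variation between libraries. That run checked the code and does not bear on replicate spread. Positions and overlaps come from GENCODE vM21.

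The members, the 20 gene lists and the alternatives were chosen with earlier results of these data known. Named genes are the members, their paralogs, Rnf8, and of each list up to 4 genes with the largest difference and the least different one. Fgfr3, Mcidas, Ppm1d, Ep300, Cdkn2a, Trp53inp1, Rfx3, Myb, Ccno, Cdk1, Cdk2, Ccne1 and E230016M11Rik, where outside that rule, are given to complete a count or were picked with their values known. The same holds for Mgmt, Jag2, Dlx3, Fgfr2, Fras1, Col17a1, Bmp7 and Satb1. Of the 55 other p53 targets, 2 were not analysed here.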

Additional observations from a re-analysis of the deposited data

How the results depend on the processing

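All 10 core genes kept the sign of their difference under every alternative that gave a value, Gadd45a between 2.47 and 3.26 and Sesn1 between -1.95 and -1.02. Of 69 such values 43 moved by less than the counting limits and 26 moved more, with 0 reversed calls. The filter settings leave each difference as it was, so their values were bound to fall among the 43. A pseudocount cannot change a sign. The 3 other scalings shifted every log2 ratio by 0.23, 0.24 and -0.025. Nearest to 0 were the log2 ratios of Mdm2, at 0.22, and, among the negative ones, of Mdm4, at -0.50. These shifts were thus too small to reverse any sign, so the kept signs and the 0 reversed calls were fixed in advance. With a pseudocount of 5 RPKM, lower core genes numbered 1 in place of 3, regulators 0 higher and 1 lower in place of 3 and 5, and p63 targets 0 lower in place of 1. With a filter of a mean RPKM of at least 5, lower p53 targets numbered 3 in place of 6, lower regulators 3 in place of 5, and p63 targets 9 higher and 0 lower in place of 14 and 1; fewer genes are tested there. With TMM scaling and with median-of-ratios size factors, lower regulators numbered 2 in place of 5. Those scalings raised every log2 ratio by 0.23 and 0.24 and moved the median of all genes measured to 0.02 and 0.03. Of all calls 58.4% and 58.9% were then higher, beside 48.1%. The median-of-ratios factor came out at 1 for both libraries, so that setting compared counts with no correction for their unlike totals. Each form had a single library. No paired analysis was possible because each group had 1 library, and no library could be left out.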
